A study of Mus musculus with 10 samples.

Results

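AMPK is the AMP-activated protein kinase, a trimer of a catalytic alpha, a scaffolding beta and a nucleotide-binding gamma subunit. The transcripts of its subunits and of Camkk2 were followed across all 10 arrays of a mouse regulatory T (Treg) cell study. The members were chosen by gene symbol: Prkaa1 and Prkaa2 (alpha), Prkab1 and Prkab2 (beta), Prkag1 and Prkag2 (gamma), and Camkk2, an upstream kinase. All 7 were measured, each by a single probe set that names no other gene, among 22180 genes in all. There were 5 arrays of wild type (WT) Treg cells and 5 of LKB1-deficient Treg cells, titled Stk11 deletion. Cells of both groups were sorted from mixed bone marrow chimeras, mice whose blood cells derive from donor marrow of more than 1 genotype, and were not cultured. The Cre line or promoter behind the deletion, the deleted exons, the age of the mice and whether an array stands for 1 animal or a pool are not stated in the labels.

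AMPK senses a falling energy charge: AMP and ADP bind the gamma subunit, and an upstream kinase phosphorylates a threonine in the activation loop of the alpha subunit. LKB1, encoded by Stk11, is the main kinase for that site in most tissues, and CaMKK2 phosphorylates the same site when calcium rises, a route known in T cells after receptor stimulation. Active AMPK restrains fatty acid and protein synthesis and promotes fatty acid oxidation and autophagy. The comparison of the groups addresses which of these transcripts differ between arrays labelled WT and Stk11 deletion. Arrays measure RNA and not phosphorylation, so the activity of the kinase was not measured.

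None of the 7 transcripts passed the limma test over all genes (Benjamini-Hochberg adjusted p under 0.05), in a comparison where 1.06% of the 22180 genes did, 52 higher and 184 lower. That split was 67 and 103 under a second quantile normalization and 52 and 363 with array medians subtracted, and no member passed in either fit. Differences are given as Stk11 deletion minus WT on the log2 scale, where 1 is a 2-fold change. The estimate was positive for 4 members and negative for 3. The unadjusted limma p was under 0.05 for Prkag2 and Prkaa1, 2 of 7, beside 14.0% of all genes. The 95% intervals of the 7 differences, which were not widened for the number of genes, lay between -0.60 and 0.58, so a 2-fold change in either direction was outside each of them. A missed threshold does not show that a transcript was unaltered, and the intervals give the sizes these arrays allow.

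**Figure D1:**
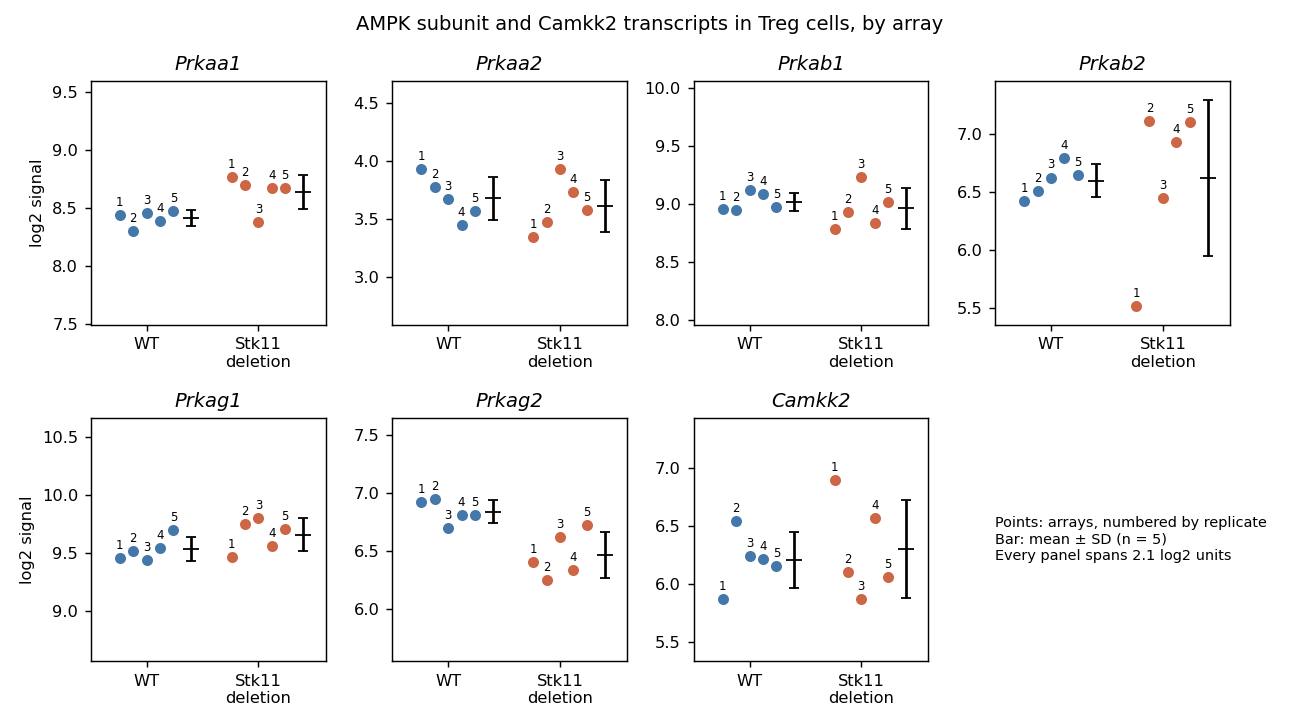
Log2 signal of the 7 transcripts on each array, WT in blue and Stk11 deletion in orange, numbered by replicate, with the mean and SD of 5 arrays as a bar. Prkag2 was below the WT mean on all 5 deletion arrays and Prkaa1 above it on 4, and the groups overlapped for every transcript.

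The libraries stood apart in ways that touch these values. Deletion arrays 4 and 5 had means of 9.67 and 9.81 over 16 macrophage and dendritic markers, against 6.75 to 7.18 on WT arrays. The mean of 11 B and plasma cell markers was 7.16, 6.65 and 6.81 on deletion arrays 1, 4 and 5, against 5.46 to 5.79 on WT arrays. Deletion array 1 also had the lowest mean of 8 Treg and T cell identity genes, 10.34 against 10.86 to 10.94 on WT arrays, with Foxp3, the lineage factor of Treg cells, at 9.86 there and at 10.95 to 11.50 on the other 9 arrays. Deletion arrays 4 and 5 were below the WT range of this mean too, at 10.78 and 10.71, and arrays 2 and 3 above it, at 11.01 and 11.05. The mean of 2 erythroid and platelet markers was 7.82 and 7.66 on deletion arrays 4 and 5, against 5.63 to 5.94 on WT arrays. That of 7 neutrophil markers was 5.43, 4.88 and 4.96 on deletion arrays 1, 4 and 5, against 4.22 to 4.75 on WT arrays. None of the macrophage or B cell markers passed the limma test singly. The mean of 8 NK cell markers was 6.07, 5.58 and 5.73 on deletion arrays 1, 4 and 5, against 5.06 to 5.16 on WT arrays. It was 5.08 and 5.23 on deletion arrays 2 and 3. Of the NK cell genes Klrd1 rose (1.53, limma adjusted p = 0.0170) and Nkg7 fell (-0.84, 0.0236). Nkg7 alone of that list had a negative estimate. Cd8a of CD8 T cells rose (0.77, limma adjusted p = 0.0423). The means of the 2 CD8 T cell and the 6 conventional CD4 T cell markers were above every WT array on all 5 deletion arrays, at 6.88 to 7.18 against 6.38 to 6.71 and at 9.24 to 10.04 against 9.04 to 9.20. The genes of these lists did not move alike. Cd8b1 was at 0.08 (limma adjusted p = 0.790), with 0 deletion arrays above every WT array. Among the CD4 markers Cd40lg had a negative estimate (-0.07) and the rest positive ones. Dapl1 was at 9.23 on deletion array 1 and at 6.43 to 6.84 on the other deletion arrays. In such bulk RNA, fewer cells of a type and less RNA per cell cannot be told apart. Stk11 was at 6.61, 6.69, 6.75, 6.95 and 6.92 on WT arrays 1 to 5 and at 6.57, 6.01, 6.05, 6.71 and 6.78 on deletion arrays 1 to 5. Its difference of -0.36 (SE 0.16, limma adjusted p = 0.335) did not pass. It was -0.75 and passed both when deletion arrays 1, 4 and 5 were dropped (adjusted p = 0.0178) and with the mean macrophage and B cell marker levels as covariates (0.0111). Stk11 was highest in its group on those 3 arrays, so dropping them by itself enlarges the difference. The covariates peak on these arrays too, so that fit is not a separate check. Deletion refers throughout to the arrays labelled so. Running codes in the sample descriptions place replicates 1 to 3 of both groups in codes 1 to 6 and replicates 4 and 5 in codes 7 to 10, and values within each series of codes are given below. The part of other cells in the members' values was not tested beyond the fits named beside them.

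**Figure D2:**
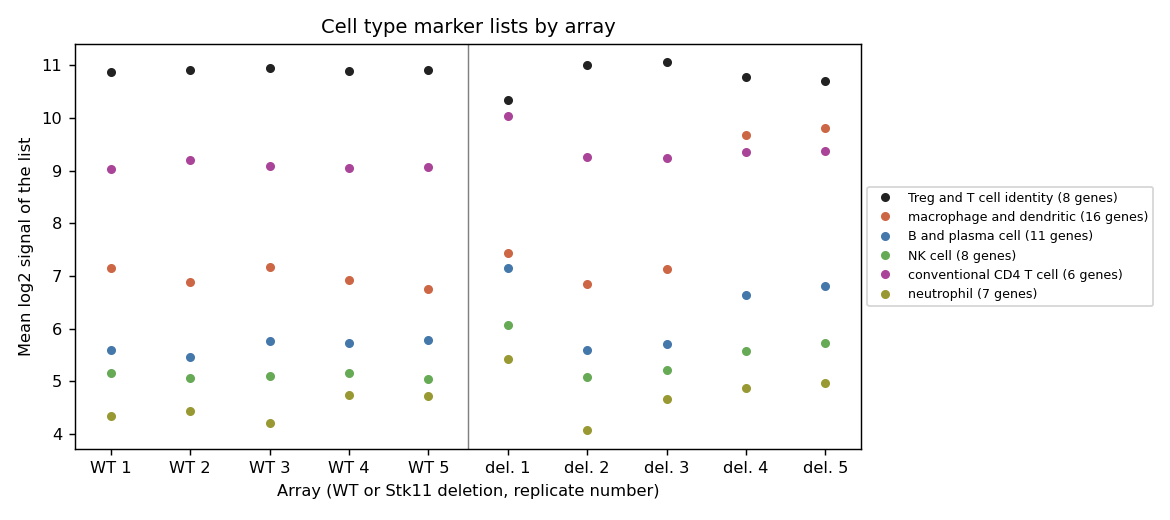
Mean log2 signal of marker lists on each array, WT on the left and Stk11 deletion on the right, with the number of genes measured in each list. Deletion arrays 4 and 5 were highest for macrophage and dendritic markers, and deletion array 1 was lowest for Treg and T cell identity genes.

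The gamma subunits bind AMP, ADP and ATP through their CBS repeats and carry the energy sensing of the complex. Prkag2, encoding gamma 2, came nearest to the threshold (probe set 17446322, Entrez gene 108099). Its log2 signal was 6.92, 6.95, 6.70, 6.81 and 6.81 on WT arrays 1 to 5. In the deletion group, arrays 1 to 5 were at 6.41, 6.25, 6.62, 6.33 and 6.73. Deletion arrays 1 to 4 lay below every WT array, and deletion array 5, at 6.73, lay just above WT array 3, at 6.70. The WT mean was 6.84 ± 0.10 and the deletion mean 6.47 ± 0.20 (SD, n = 5 each). The difference was -0.37 (SE 0.11, 95% interval -0.60 to -0.14), a signal 1.29-fold lower in the deletion group, with a limma adjusted p of 0.134. By unadjusted p, 3.38% of all genes ranked ahead of it.

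Prkag2 had a negative estimate in both series of codes, -0.43 within codes 1 to 6 and -0.28 within codes 7 to 10 (limma adjusted p = 0.375 and 0.570). Without deletion arrays 1, 4 and 5, where the markers of other cells were highest, it was at -0.40 (adjusted p = 0.178). With those marker levels as covariates it was at -0.41 (adjusted p = 0.201). A further probe set of the array names Prkag2 together with the antisense gene Prkag2os1 and was given to neither. Which of the Prkag2 transcripts the probe set reads is not stated in the annotation used.

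Prkag1, encoding gamma 1, the broadly expressed form, was measured by probe set 17321351 (Entrez gene 19082). Its signal was 9.46, 9.51, 9.44, 9.54 and 9.70 on WT arrays 1 to 5 and 9.46, 9.75, 9.80, 9.56 and 9.71 on deletion arrays 1 to 5. Deletion arrays 2, 3 and 5 were above every WT array, and arrays 1 and 4 lay within the WT range. The means were 9.53 ± 0.10 and 9.66 ± 0.14 (SD, n = 5 each), and the difference of 0.13 (SE 0.095, 95% interval -0.078 to 0.33) had an adjusted p of 0.601 in limma. It was 0.20 within codes 1 to 6 and 0.015 within codes 7 to 10, and neither passed. Without deletion arrays 1, 4 and 5 it was 0.25 (adjusted p = 0.339). Those arrays were the lowest of the group, so leaving them out had to raise the estimate. Prkag3, the remaining gamma gene, known mainly from skeletal muscle, reached at most 4.32 on WT and 4.53 on deletion arrays (0.15, limma adjusted p = 0.529), below the array medians of 4.83 to 4.94. The table carries no detection calls, so values this low cannot be told from background.

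The estimates of the gamma genes had opposite signs, and the within-array difference Prkag2 minus Prkag1 separated the groups. It was -2.54, -2.56, -2.74, -2.73 and -2.89 on WT arrays 1 to 5. It was -3.06, -3.51, -3.18, -3.23 and -2.98 on deletion arrays 1 to 5. The deletion arrays were all below the WT arrays, with means of -3.19 ± 0.20 and -2.69 ± 0.15 (SD, n = 5 each) that differ by -0.50. The change between the groups is the quantity of interest, since signals of different probe sets are not on a common scale. This comparison of isoforms was chosen after the values were seen and was given no test. Of single genes, 4.71% had no overlap between the groups.

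**Figure D3:**
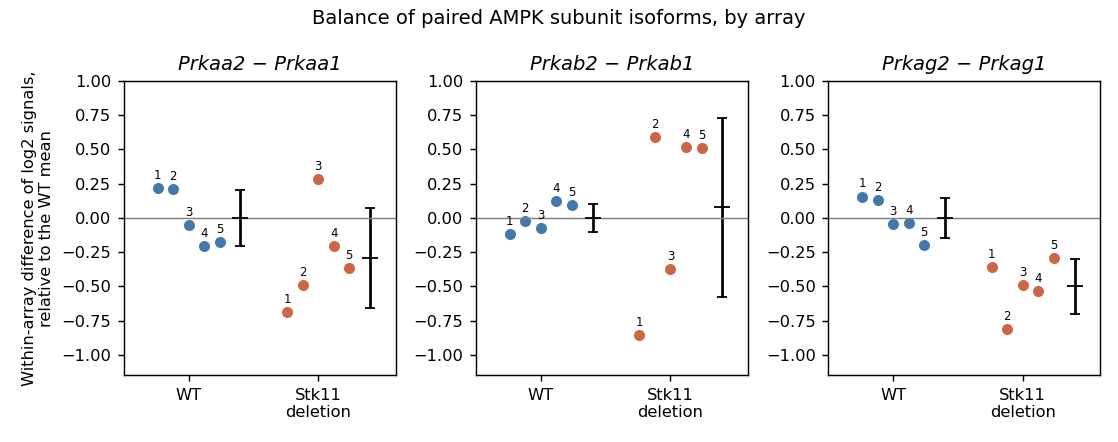
Within-array difference of log2 signals between the 2 isoforms of each subunit, relative to the WT mean, by array, with the mean and SD of 5 arrays. Prkag2 minus Prkag1 was lower on all 5 Stk11 deletion arrays than on any WT array, and the other pairs overlapped.

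The alpha subunits hold the kinase domain and the activation loop that LKB1 and CaMKK2 phosphorylate. Prkaa1, encoding alpha 1, the main catalytic form of lymphocytes, was read by probe set 17309907 (Entrez gene 105787). Its signal was 8.44, 8.30, 8.46, 8.39 and 8.48 on WT arrays 1 to 5 and 8.77, 8.70, 8.38, 8.68 and 8.68 on deletion arrays 1 to 5. Deletion arrays 1, 2, 4 and 5 were above every WT array, while array 3 lay inside the WT range, apart from the rest of its group. The means were 8.41 ± 0.07 and 8.64 ± 0.15 (SD, n = 5 each). The difference was 0.23 (SE 0.092, 95% interval 0.027 to 0.43, limma adjusted p = 0.284), or 1.17-fold.

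Prkaa1 was at 0.22 within codes 1 to 6 and at 0.24 within codes 7 to 10 (adjusted p = 0.651 and 0.517). Unlike Prkag2, its estimate was smaller without deletion arrays 1, 4 and 5, at 0.13 (adjusted p = 0.704), and with the marker list covariates, at 0.13 (0.691). Leaving those arrays out keeps array 3, the lowest of the group, as 1 of the 2 that remain. Without deletion array 3 the estimate was 0.29 (adjusted p = 0.133). The covariate fit kept all deletion arrays, array 3 included. The covariates peak on deletion arrays 1, 4 and 5, so that fit is not a separate check. The size for Prkaa1 therefore differed between fits, and in no fit did it pass. Whether array 3 or the markers of other cells account for the smaller estimates was not tested.

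Prkaa2, encoding alpha 2, the form typical of skeletal and heart muscle, was at 3.93, 3.78, 3.67, 3.45 and 3.57 on WT arrays 1 to 5 (probe set 17427746, Entrez gene 108079). The 5 deletion arrays, in order of number, were at 3.35, 3.48, 3.93, 3.74 and 3.58. Every value was below the median of its array, in the range that cannot be told from background. The difference of -0.07 (95% interval -0.34 to 0.21, limma adjusted p = 0.870) was smaller than the SD of either group, 0.19 in WT and 0.23 in deletion cells. A change of a transcript at or under background would not show on this scale.

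The beta subunits tie alpha to gamma, carry a glycogen-binding module and are myristoylated. Prkab1, encoding beta 1, was at 8.96, 8.94, 9.11, 9.08 and 8.97 on WT arrays 1 to 5 (probe set 17451769, Entrez gene 19079). The deletion arrays, in the same order, were at 8.78, 8.93, 9.23, 8.83 and 9.01. Of the deletion arrays, 3 were below every WT array and 1 above. The difference of -0.06 (SE 0.099, 95% interval -0.27 to 0.16, limma adjusted p = 0.853) was within the SD of both groups, 0.08 and 0.18. Its sign turned to 0.07 without deletion arrays 1, 4 and 5 and to 0.01 under a second quantile normalization. Arrays 1 and 4 were the lowest of the group, at 8.78 and 8.83, so leaving them out raises the estimate.

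Prkab2, encoding beta 2, varied most within the deletion group (probe set 17400788, Entrez gene 108097). On WT arrays 1 to 5 it was at 6.43, 6.51, 6.63, 6.79 and 6.65. On deletion arrays 1 to 5 it was at 5.52, 7.11, 6.45, 6.93 and 7.11. Arrays 2, 4 and 5 exceeded every WT array, array 3 lay inside the WT range, and array 1, the array with the lowest Foxp3, was below every WT array. The SD was 0.14 in WT and 0.67 in deletion cells, a ratio of 4.80. The mean difference of 0.02 (95% interval -0.54 to 0.58, adjusted p = 0.980 in limma) therefore had the widest interval of the 7. Without deletion array 1 the estimate was 0.30 (95% interval -0.01 to 0.61, adjusted p = 0.339). That array was the lowest of its group, so leaving it out had to raise the estimate. It was -0.16 within codes 1 to 6, which hold array 1, and 0.30 within codes 7 to 10.

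The other pairs of isoforms overlapped between the groups. Prkaa2 minus Prkaa1 was at -4.94 to -4.51 on WT and -5.42 to -4.45 on deletion arrays. Prkab2 minus Prkab1 was at -2.53 to -2.29 on WT arrays and spread from -3.27 to -1.82 on deletion arrays. On deletion arrays 2, 4 and 5 the beta difference was above every WT array, and on arrays 1 and 3 it was below every WT array. A wider spread in the deletion group was common to all 7 members, with SD ratios of 1.22 (Prkaa2) to 4.80 (Prkab2), and was found for 68.8% of all genes, whose median ratio was 1.38.

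Camkk2 encodes the calcium and calmodulin dependent kinase kinase that can phosphorylate the activation loop of AMPK without LKB1. It was measured by probe set 17452456 (Entrez gene 207565). On WT arrays 1 to 5 its signal was 5.87, 6.54, 6.24, 6.22 and 6.15. Its signal in deletion cells was 6.90, 6.10, 5.87, 6.56 and 6.06. Arrays 1 and 4 of the deletion group were above every WT array, and the other 3 lay below the WT mean. The difference of 0.09 (SE 0.19, 95% interval -0.32 to 0.50, limma adjusted p = 0.876) was smaller than the SD of either group, 0.24 and 0.42. Its sign was not settled: it was -0.06 without deletion array 1, -0.22 without deletion arrays 1, 4 and 5, and -0.15 with the marker list covariates, none past the threshold. Arrays 1 and 4 were the highest of the group, so leaving them out lowers the estimate. The covariates peak on the arrays left out, so that fit is not a separate check. A higher level of this kinase transcript in deletion cells was thus not detected, and the interval leaves room for an increase of up to 0.50.

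**Figure D4:**
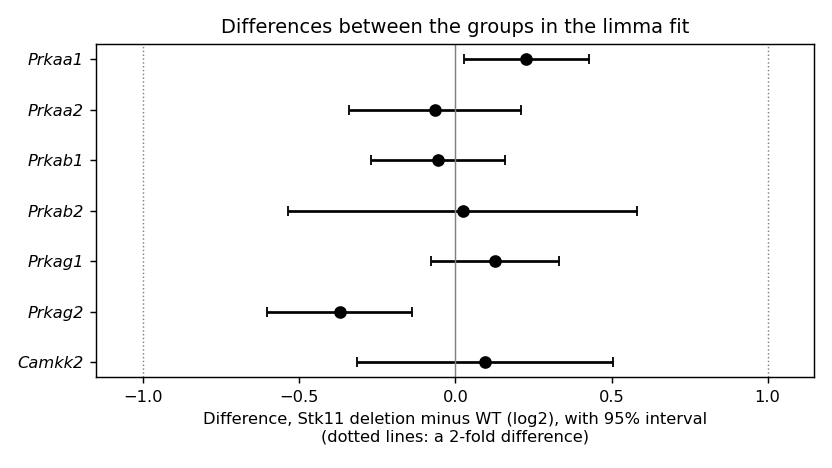
Difference between the groups for the 7 transcripts on the log2 scale, with the 95% interval of the limma fit, and dotted lines at a 2-fold change. The interval of Prkab2 was the widest, those of Prkag2 and Prkaa1 did not reach 0, and none reached a dotted line.

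The sequences before the starts of Prkag2 and Prkaa1 are shown because these members had the smallest p-values, in opposite directions, and because RefSeq (GRCm38.p6) lists 3 separate starts for Prkag2. Each line gives the 250 bases upstream of a start, 5′ to 3′ on the strand of the gene. Capitals mark GC boxes (GGGCGG, bound by Sp1 family factors) and CCAAT boxes (CCAAT, bound by NF-Y), on either strand. The arrays did not assay promoters, and the build of the array is not given.
Prkaa1, chr15:5143611-5143860, plus strand: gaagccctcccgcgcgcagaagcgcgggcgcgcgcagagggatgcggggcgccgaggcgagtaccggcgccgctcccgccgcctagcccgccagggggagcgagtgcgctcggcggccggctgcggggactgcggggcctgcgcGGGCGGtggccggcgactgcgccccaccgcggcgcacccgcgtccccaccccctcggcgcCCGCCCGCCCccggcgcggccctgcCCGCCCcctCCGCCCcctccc
Prkag2 start 1, chr5:25100643-25100892, minus strand: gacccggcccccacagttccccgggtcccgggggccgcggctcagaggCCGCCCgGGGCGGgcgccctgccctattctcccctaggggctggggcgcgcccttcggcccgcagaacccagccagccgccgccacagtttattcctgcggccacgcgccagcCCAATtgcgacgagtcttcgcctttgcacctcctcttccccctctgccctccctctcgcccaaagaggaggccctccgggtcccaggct
Prkag2 start 2, chr5:24995754-24996003, minus strand: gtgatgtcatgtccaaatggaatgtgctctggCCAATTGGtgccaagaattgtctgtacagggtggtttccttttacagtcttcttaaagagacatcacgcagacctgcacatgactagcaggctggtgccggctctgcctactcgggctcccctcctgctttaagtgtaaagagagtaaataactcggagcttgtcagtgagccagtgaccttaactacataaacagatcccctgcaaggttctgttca
Prkag2 start 3, chr5:24908510-24908759, minus strand: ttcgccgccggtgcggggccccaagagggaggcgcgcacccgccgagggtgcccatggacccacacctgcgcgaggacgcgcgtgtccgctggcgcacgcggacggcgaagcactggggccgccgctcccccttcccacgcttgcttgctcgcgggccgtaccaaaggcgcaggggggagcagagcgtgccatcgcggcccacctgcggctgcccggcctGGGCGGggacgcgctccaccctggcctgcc

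The Prkaa1 sequence had a G+C share of 85.2% with 45 CpG dinucleotides and 5 GC boxes, 2 of which overlap. Starts 1 and 3 of Prkag2 had G+C shares of 73.2% and 77.2% and 23 and 34 CpG. Start 2 had 48.4% and 4 CpG, 2 CCAAT boxes that overlap on opposite strands, and no GC box. Over all 32841 promoters of that length, non-coding genes included, the median was 52.4% with 6 CpG, 32.7% held a GC box and 33.9% a CCAAT box. The upstream sequences of Prkaa2, Prkab1, Prkab2 and Camkk2 had G+C shares of 65.6% to 72.4%, and that of Prkag1 had 51.6%. None of the 9 sequences held the full cyclic AMP response element (TGACGTCA, either strand), which 1.55% of all promoters held. Prkag1 and Prkaa2 each held its 5-base part TGACG, as did 17.8% of all promoters. A match is a description of letters and not of a bound site.

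Genes around AMPK were described by lists of known pathway genes, of which 77 of 85 were measured. Of these 77, 0 passed as higher and 2 as lower, beside 0.234% and 0.830% of all genes. The 2 were Aprt and Pprc1. An unadjusted limma p under 0.05 was found for 17, beside 14.0% of all genes. The groups did not overlap for 8 (10.4%), beside 4.71% of all genes. The median difference was -0.07, beside 0.0034 over all genes.

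**Figure D5:**
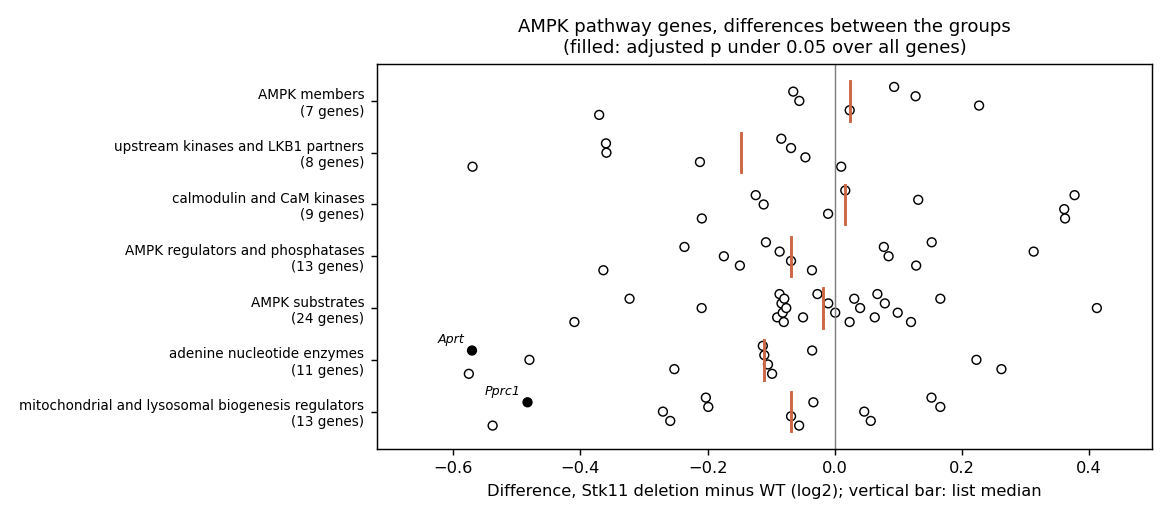
Difference between the groups for each measured gene of the AMPK pathway lists on the log2 scale, filled where the adjusted p was under 0.05 over all genes, with list medians as vertical bars. Aprt and Pprc1 were the filled points, and no gene of the AMPK, calmodulin kinase or substrate lists was filled.

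In the list of upstream kinases and LKB1 partners, 0 of 8 measured genes passed (3 at an unadjusted limma p under 0.05), 7 estimates were negative and the median was -0.15. Cab39l and Cab39 encode MO25 scaffold proteins that hold LKB1 in its active complex, and had the smallest p. Cab39l was at 7.44, 7.28, 7.13, 7.34 and 7.29 on WT arrays 1 to 5 and at 6.18, 6.69, 7.01, 6.77 and 6.98 on deletion arrays 1 to 5. The groups did not overlap (difference -0.57, SE 0.15, limma adjusted p = 0.0904). Without deletion array 1 the difference was -0.43 and passed (adjusted p = 0.0492), the only 1 of the 10 fits leaving out an array to do so. Without deletion arrays 1, 4 and 5 and with the marker list covariates it was -0.45 and -0.48, without passing (0.134 and 0.116). Cab39 was at -0.36 (adjusted p = 0.142), with 4 of 5 deletion arrays below every WT array. In the same 2 fits Cab39 was at -0.22 (limma adjusted p = 0.469 and 0.445). Deletion arrays 1 and 5 were its lowest, at 7.87 and 8.03, so leaving them out makes its difference smaller. The covariates peak on the arrays left out.

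In the list of calmodulin and CaM kinases, 0 of 9 measured genes passed (2 at an unadjusted p under 0.05) and the median was 0.02. Camk1d, a calmodulin kinase that CaMKK enzymes activate, was at 6.46 to 6.88 on WT arrays and at 6.88 to 7.09 on deletion arrays, a difference of 0.38 (adjusted p = 0.0931). It passed under a second quantile normalization (0.44, adjusted p = 0.0466). Camk4, another CaMKK target, was at 8.40 to 8.58 on WT arrays. On deletion arrays 1 to 5 it was at 8.36, 9.19, 9.16, 8.86 and 8.64, so that array 1 was below every WT array and the other 4 above. Its difference of 0.36 did not pass (limma adjusted p = 0.284), and with all its probe sets averaged the difference was 0.19 (0.398). The difference from the probe set with the highest mean passed without deletion arrays 1, 4 and 5 (0.69, 0.0124). It also passed with the marker list means as covariates (0.68, limma adjusted p = 0.0104). Camk4 was lowest on the 3 arrays left out, which by itself enlarges the difference, and the covariates peak on these arrays too.

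In the list of AMPK regulators and phosphatases, 0 of 13 genes passed (1 at an unadjusted p under 0.05), with a median of -0.07. Ppp2cb, a catalytic subunit of protein phosphatase 2A, was at -0.36 (adjusted p = 0.241) and Ppm1e, a phosphatase of calmodulin kinases and AMPK, at -0.17 (0.493). Ppp2cb was at 9.19 on deletion array 1 and at 8.38 to 8.59 on deletion arrays 2 to 5, against 8.91 to 9.09 on WT arrays. Without deletion array 1 its difference was -0.50 and passed (adjusted p = 0.0111), and leaving out the highest array of the group had to enlarge it.

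Of 24 measured AMPK substrates, 0 passed (4 at an unadjusted p under 0.05), 13 estimates were negative and 11 positive, and the median was -0.02. Rptor encodes Raptor, the mTORC1 scaffold that AMPK phosphorylates. It was at 7.11 to 7.38 on WT arrays and at 7.43, 8.07, 7.90, 7.58 and 7.54 on deletion arrays 1 to 5, with no overlap, a difference of 0.41 (SE 0.13, limma adjusted p = 0.151). It passed without deletion arrays 1, 4 and 5 (0.69, adjusted p = 0.0194) and with the marker list means as covariates (0.68, 0.0148). Rptor was lowest on those 3 arrays of its group, so their removal by itself enlarges the difference. The covariates peak on these arrays too. Acss2, which makes acetyl-CoA from acetate, was at -0.41 (adjusted p = 0.167), with 4 of 5 deletion arrays below every WT array, and passed without the 3 arrays (-0.58, adjusted p = 0.0418). Of these, arrays 4 and 5 were the highest of the group, at 7.01 and 7.30, and leaving them out enlarges the difference. With the covariates it did not pass (-0.57, limma adjusted p = 0.0569). It was -0.58 within codes 1 to 6 and -0.15 within codes 7 to 10, without passing.

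Enzymes of adenine nucleotides set the pool of AMP, ADP and ATP that the gamma subunit reads. Of 11 measured, 1 fell and 9 estimates were negative, with a median of -0.11. Aprt, which salvages adenine to AMP, was at 8.66, 8.50, 8.61, 8.66 and 8.44 on WT arrays 1 to 5. In deletion cells it was at 8.38, 7.90, 7.88, 7.77 and 8.08, below every WT array. The difference was -0.57 (SE 0.12, adjusted p = 0.0423 in limma). Adsl and Adss, both of AMP synthesis, also had no overlap between the groups, at -0.48 and -0.58 (adjusted p = 0.0687 and 0.0793), and are named after their values were seen. Aprt was past the threshold in 1 of the 10 fits that left out an array in turn, with adjusted p of 0.0049 to 0.120, and its estimate was -0.67 to -0.51 in them. It was -0.68 without deletion arrays 1, 4 and 5 and with the marker list means as covariates, past the threshold in both (adjusted p = 0.0156 and 0.0200). Of these arrays, 1 and 5 were the highest of the group, at 8.38 and 8.08, and 4 the lowest, at 7.77. Leaving out arrays 1 and 5 enlarges the difference. The covariates peak on these arrays too, so that fit is not a separate check. With the series of codes as a block Aprt passed (limma adjusted p = 0.0477). Within codes 1 to 6 and 7 to 10 it was -0.54 and -0.62, without passing (0.339 and 0.181).

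Among 13 regulators of mitochondrial and lysosomal biogenesis, 1 fell, with a median of -0.07. Pprc1, a coactivator of the PGC-1 family, was at 8.05, 8.21, 8.24, 8.35 and 8.35 on WT arrays 1 to 5. In deletion cells it was at 7.97, 7.85, 7.74, 7.51 and 7.71, below every WT array. The difference was -0.48 (SE 0.10, adjusted p = 0.0495 in limma). It was -0.31 within codes 1 to 6 and -0.74 within codes 7 to 10 (adjusted p = 0.468 and 0.0694), and with the series of codes as a block it did not pass (0.0612). It passed in 1 of the 10 fits that left out an array (adjusted p 0.0184 to 0.130). It did not pass without deletion arrays 1, 4 and 5 (-0.44, adjusted p = 0.104) or with the marker list means as covariates (-0.45, 0.0792).

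The genes whose log2 signals followed each member most closely were taken as the 3 with the highest Pearson r over the 10 arrays, passing over predicted and non-coding genes. These are the extremes of all genes over 10 arrays that share their normalization, so they are a description and carry no test. For Prkag2 they were Glod4 (r = 0.961), Nsa2 (0.953) and Rbbp7 (0.942), with differences between the groups of -0.54, -0.27 and -0.28, none past the threshold. For Prkab2 they were Sorbs3 (0.991), Arhgap17 (0.960) and Ccrl2 (0.960). The signals of Sorbs3 and Prkab2 also moved together within the groups (r = 0.995 of deviations from the group means), which the low value of Prkab2 on deletion array 1 weights heavily. For Prkaa1 they were Kdr (0.926), Adm (0.924) and Apela (0.915). For Prkag1 they were Selp (0.944), Traf3ip3 (0.931) and Zfp652 (0.926). For Prkab1 they were Zfp287 (0.946), Kdm4d (0.932) and Grsf1 (0.916). For Camkk2 they were Hspb1 (0.958), Tmem167 (0.949) and Mlph (0.940), and for Prkaa2 Rab21 (0.868), H6pd (0.861) and Ednrb (0.859). No member appeared among the 3 genes of another.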

How the data were processed

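Transcripts were measured with single-channel arrays of biotin-labelled cDNA, 1 per sample, amplified from a few nanograms of total RNA with NuGEN kits, per the labels' protocols. The deposited values are on the log2 scale. RMA and Partek 6.6 were used, per the submitters' processing notes, with no order or settings stated. Amplification can distort levels, and RMA makes array distributions more alike, so a shift of all transcripts could be hidden. The array medians over all probe sets still differed by group, at 4.83 to 4.86 on WT and 4.88 to 4.94 on deletion arrays. Of 41345 probe sets, 23521 named 1 gene, 1814 several and 16010 none in the platform annotation. The probe set with the highest mean represented a gene.

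Groups came from the sample titles. limma 3.58.1 (R 4.3.3; lmFit, eBayes, 4.36 prior degrees of freedom) compared all 10 arrays without covariates. No low gene was removed. The labels do not say that arrays came from separate animals, so p-values measure only the spread between arrays, which could be technical. The small number of arrays limits precision. The members, gene lists and tests were chosen with earlier results of these data known. The genes named are the 7 members, Stk11, Prkag3, in each list those past the threshold or else the 2 with the smallest p, and the 3 genes most like each member. Adsl, Adss and Sesn2, and the cell type markers named singly, were named after their values were seen. The code was checked on simulated data with known changes. Alternatives were the mean of probe sets, every probe set tested alone, a low filter, array median subtraction, a second quantile normalization, other variance settings, array weights, replicate and code blocks, each array left out, and an adjusted p under 0.01. Fits within each series of codes, without deletion arrays 1, 4 and 5, and with marker list means as covariates were added after seeing the data.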

Additional observations from a re-analysis of the deposited data

Results flagged for a closer look

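In each group of 5 arrays, the gap between the highest or lowest array and its nearest neighbour was set against the whole range (Dixon's test), for the members and the named pathway genes, 38 gene and group pairs in all. Chance picks out about 1 in 20. Prkaa1 on deletion array 3, at 8.38 against 8.68 to 8.77 on the other deletion arrays, had a gap of 0.764 of the range, above the critical value of 0.71. Ppp2cb on deletion array 1, at 9.19 against 8.38 to 8.59, had a gap of 0.744.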

How the results depend on the processing

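None of the 7 members passed the threshold in any of the 25 alternatives, in which the dimmest 40% filter left Prkaa2 out. Prkag2, Prkaa1 and Prkag1 kept their sign in all of them, Prkag2 at -0.44 to -0.28 with adjusted p of 0.0752 to 0.570. With each array left out in turn the ranges were 0.20 to 0.29 for Prkaa1, -0.14 to 0.0012 for Prkaa2, -0.12 to -0.012 for Prkab1, -0.10 to 0.30 for Prkab2, 0.091 to 0.18 for Prkag1, -0.44 to -0.32 for Prkag2 and -0.056 to 0.20 for Camkk2. Signs turned in other fits too. Prkab2 was at -0.027 with array medians subtracted and at -0.16 within codes 1 to 6, and Prkab1 at 0.012 under a second quantile normalization. Prkaa2 was at 0.15 within codes 7 to 10. Without deletion arrays 1, 4 and 5, Prkaa2 was at 0.025, Prkab1 at 0.068 and Camkk2 at -0.22. With marker list means as covariates, which peak on those arrays, they were at 0.019, 0.036 and -0.15. The cause was not tested.

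The numbers of genes called, 52 higher and 184 lower over all genes and 0 and 2 in the pathway lists, moved more. Over all genes they were 21 and 69 with every probe set tested alone, 72 and 284 without the dimmest genes, 52 and 363 with medians subtracted (12.5% of calls higher, against 22.03%), 67 and 103 under a second quantile normalization (39.4%), 79 and 307 with a trended robust prior, 17 and 132 without moderation, 135 and 329 with array weights, and 5 and 20 at an adjusted p under 0.01. With the series of codes as a block they were 70 and 190, with 2 pathway genes lower, Aprt and Adss in place of Pprc1. Within codes 1 to 6 limma called 0 and 0, with 2247 genes at an unadjusted p under 0.05, and within codes 7 to 10 it called 423 and 46. They were 154 and 203 without deletion arrays 1, 4 and 5 and 129 and 207 with the covariates. Leaving out an array gave 8 to 180 higher and 30 to 340 lower, and 0 to 6 pathway genes lower. In the pathway lists 0 genes were lower with every probe set alone, under a second quantile normalization, without moderation, within either series of codes and at an adjusted p under 0.01, 4 with medians subtracted and 5 with array weights. Pathway genes higher were 1 under a second quantile normalization (Camk1d), 1 within codes 7 to 10 (Sesn2), and 2, Rptor and Camk4, without the 3 deletion arrays or with the covariates.

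With the replicate number as a block, limma called 14 higher and 36 lower genes, 0 pathway genes were lower, and the members stood at adjusted p of 0.248 (Prkag2) and above. Arrays of the same number did not deviate together (r = -0.079 to 0.10), and 1 of 5 WT arrays matched its own number best. The main fit did not take the numbers as pairs. The labels do not say whether arrays of the same number came from the same chimera, and weak correlation cannot exclude it.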
